A study of Homo sapiens with 12 samples.

Results

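The 10 genes described here encode the receptor chains, kinases and inducible inhibitors of interferon signalling: the interferon receptor chains IFNAR1, IFNAR2, IFNGR1 and IFNGR2, the kinases JAK1, JAK2 and TYK2, and the suppressors of cytokine signalling SOCS1, SOCS2 and SOCS3. They were chosen by name, through their Ensembl identifiers, from the 60669 genes of the count table, and all 10 passed the filter on low counts, as did 16393 genes in all. The cells were HT1080, a human fibrosarcoma line, which carried dCas9, a Cas9 without cutting activity that is used to silence sequences, in every group, the controls included. One line also expressed a guide RNA directed to LTR8B, a retroviral long terminal repeat located in the first intron of SP140 (genotype dCas9_CRISPRi_LTR8B.SP140; LTR8B cells below), and the control line a guide RNA against GFP (genotype dCas9_CRISPRi_GFP; GFP cells below). Both lines were kept under blasticidin and puromycin selection, and the labels do not say whether each came from 1 clone or from a pool. Polyadenylated RNA was sequenced from cells given 10 U/mL of interferon beta (IFNB) for 4 h and from untreated cells, with 4 LTR8B IFNB, 4 LTR8B untreated, 2 GFP IFNB and 2 GFP untreated libraries. Whether the replicates of a group grew as separate cultures is not stated in the labels, and every p-value below therefore refers only to variation among these libraries, which may be technical.

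Type I interferons such as IFNB bind a receptor made of IFNAR1, which carries the kinase TYK2, and IFNAR2, which carries JAK1. Interferon gamma binds IFNGR1, which carries JAK1, and IFNGR2, which carries JAK2. The kinases phosphorylate STAT proteins, which enter the nucleus and switch on interferon-stimulated genes. SOCS proteins are produced in response to cytokines and bind kinases or receptors to dampen the signal, SOCS1 at the kinases of interferon receptors, SOCS3 mainly at receptors that contain gp130, and SOCS2 at the growth hormone receptor.

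Levels are given as CPM, counts per 1000000 counts after TMM scaling between libraries, and SD is the standard deviation over the libraries of a group. Fold changes are on the log2 scale, from a single edgeR quasi-likelihood model of all 12 libraries, with p-values adjusted over the 16393 tested genes by Benjamini-Hochberg and a gene called changed below 0.05. Total counts per library ran from 12404270 to 28801579. SP140, the gene with the targeted element, lay at 0.901 to 1.48 CPM in the LTR8B IFNB libraries and 0.515 to 1.84 CPM in the LTR8B untreated libraries, against 29.8 to 32.04 CPM in the GFP IFNB libraries and 29.8 to 30.8 CPM in the GFP untreated libraries, with every LTR8B library below every GFP library. Of 12 interferon-stimulated genes used to check the IFNB label, all 11 that were tested rose in both lines, among them ISG15, IFIT1 and MX1. The gene not tested was IRF7, with 1 count in all 12 libraries. Of 8 fibrosarcoma and mesenchymal markers 7 averaged 1 CPM or more, with VIM at 3464 CPM, CD44 at 742 CPM and the collagen genes COL1A1 and COL1A2 low, at 1.86 and 0.494 CPM. Of 6 epithelial markers 2 did, the keratins KRT8 and KRT18 at 265 and 140.2 CPM, while EPCAM and CDH1 averaged 0.0732 and 0.0785 CPM. Of 8 blood cell markers 2 did, CSF1R at 6.17 and LAPTM5 at 4.79 CPM, while the leukocyte marker PTPRC averaged 0.0193 CPM. Of 4 endothelial markers 2 did, PECAM1 at 7.70 and VWF at 1.68 CPM. Of 5 neural markers 2 did, TUBB3 at 118 and NCAM1 at 38.8 CPM.

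Before any response is described, the 10 genes differed widely in level. Per kilobase of exon, which allows levels of different genes to be set side by side, JAK1 had the highest mean over the 12 libraries, 28.6 CPM per kb, with a range of 25.9 to 32.2. IFNGR2 followed at 12.4 CPM per kb, IFNAR1 at 10.3, IFNGR1 at 9.78, SOCS3 at 9.65 and TYK2 at 6.86. IFNAR2 at 3.34 and JAK2 at 3.12 CPM per kb formed a lower tier, and SOCS2 at 1.02 and SOCS1 at 0.874 CPM per kb were the least abundant of the 10. Neighbours in this order overlapped in range over the libraries, except JAK1 and IFNGR2, SOCS3 and TYK2, TYK2 and IFNAR2, and JAK2 and SOCS2. For SOCS1 and SOCS2 the order depended on treatment. Untreated, SOCS1 averaged 0.341 and SOCS2 0.995 CPM per kb in LTR8B cells, and 0.389 and 1.30 in GFP cells. With IFNB, SOCS1 averaged 1.30 and SOCS2 0.874 CPM per kb in LTR8B cells, and 1.57 and 1.05 in GFP cells. The order rests on the exon length used: with the longest transcript in place of the union of exons, 4 of the 10 genes kept their place, and the places of JAK1, IFNGR2, SOCS2 and SOCS1 were those that held. By the longest transcript SOCS2 averaged above SOCS1 with IFNB too, 1.59 against 1.31 CPM per kb in LTR8B cells and 1.91 against 1.58 in GFP cells.

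**Figure D1:**
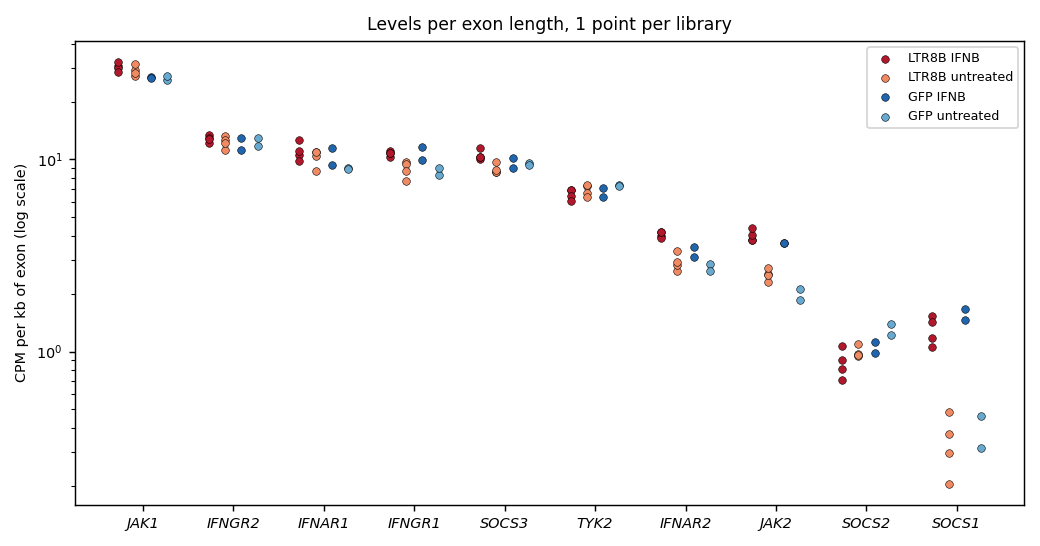
Levels of the 10 genes per kilobase of exon, in CPM per kb on a log axis, with a point for each of the 12 libraries coloured by guide and treatment. JAK1 lies highest, at a mean of 28.6 CPM per kb, and SOCS2 and SOCS1 lie lowest.

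The first question was how IFNB itself changed the machinery that receives it. In LTR8B cells 3 of the 10 genes rose and 0 fell (SOCS1, JAK2 and IFNAR2), where 4.50% of all tested genes changed, 4.01% upward. In GFP cells 2 of the 10 rose and 0 fell (SOCS1 and JAK2), where 3.20% of all tested genes changed, 3.06% upward. The average over both lines gave each line equal weight, although LTR8B cells had 4 libraries per group and GFP cells 2. In this average 4 of the 10 rose and 0 fell, SOCS1, JAK2, IFNAR2 and IFNGR1, where 6.29% of all tested genes changed, 5.28% upward. The median log2 fold change of the 10 genes in the averaged response was 0.14, beside -0.01 for all tested genes. The other 6 genes, which include IFNAR1 and the kinases JAK1 and TYK2 that serve the type I receptor, did not pass the test in any of these comparisons. In LTR8B cells the IFNB and untreated libraries of 5 of the 10 genes did not overlap, all with IFNB above, beside 9.12% of all tested genes. In GFP cells 5 lay above and 2 below without overlap, beside 44.5% of all tested genes. In bulk RNA a smaller number of cells of a type and less RNA per cell cannot be told apart.

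**Figure D2:**
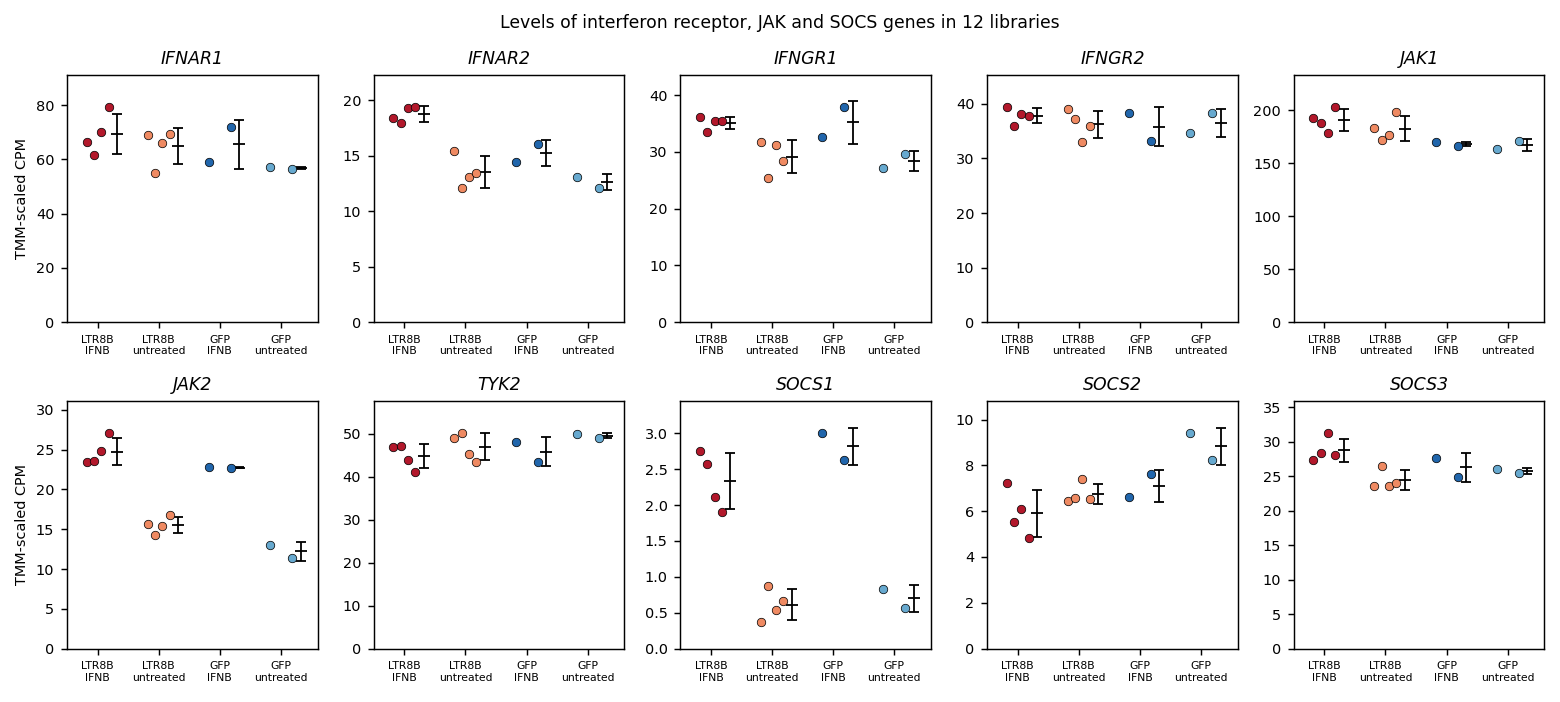
CPM of each of the 10 genes in every library, one panel per gene on its own axis, with LTR8B IFNB, LTR8B untreated, GFP IFNB and GFP untreated from left to right, points for libraries and bars for the mean and SD. SOCS1 and JAK2 show IFNB libraries above all untreated libraries in both lines, whereas the groups of IFNGR2 overlap.

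Among the receptor chains, IFNAR2, the chain that binds IFNB with the higher affinity and carries JAK1, had 18.4, 17.98, 19.3 and 19.4 CPM in the LTR8B IFNB libraries, against 15.4, 12.1, 13.1 and 13.5 CPM in the LTR8B untreated libraries. In GFP cells it had 14.4 and 16.1 CPM with IFNB, against 13.1 and 12.1 CPM untreated. All IFNB libraries of a line lay above all its untreated libraries. The log2 fold change was 0.47 (SE 0.09, adjusted p = 0.00182) in LTR8B cells and 0.27 (SE 0.12, adjusted p = 0.411) in GFP cells, and 0.37 (SE 0.07, adjusted p = 0.00341) averaged over the lines. IFNAR2 lies on chromosome 21 (33229901 to 33265675, plus strand, hg38) and shares 2038 exon bases with the readthrough gene IFNAR2-IL10RB on the same strand, so the counting could divide reads between both entries. The readthrough entry held 0.102, 0.187, 0 and 0.848 CPM in the LTR8B IFNB libraries, 0.0461, 0.412, 3.99 and 0 CPM in the LTR8B untreated libraries, 3.29 and 2.19 CPM in the GFP IFNB libraries and 2.38 and 4.05 CPM in the GFP untreated libraries. The counts of both entries were also summed, an alternative chosen after seeing the data. The IFNB response of IFNAR2 was then 0.37 (adjusted p = 0.0254) in LTR8B cells, 0.18 (adjusted p = 0.638) in GFP cells and 0.28 (adjusted p = 0.0470) averaged over the lines. IFNAR2 also shares 1803 exon bases with IL10RB-DT on the opposite strand, whose part in the counts was not tested.

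IFNAR1, the other chain of the type I receptor, had 66.2, 61.8, 69.9 and 79.3 CPM in the LTR8B IFNB libraries, against 68.9, 55.1, 65.9 and 69.2 CPM in the LTR8B untreated libraries. It had 59.2 and 72.0 CPM in the GFP IFNB libraries, against 57.2 and 56.4 CPM in the GFP untreated libraries. The LTR8B groups overlapped, the GFP groups did not, and the averaged log2 fold change was 0.15 (95% interval -0.01 to 0.31, adjusted p = 0.346). The ratio of IFNAR1 to IFNAR2 per kilobase of exon, without the readthrough entry, was 2.52 to 2.995 in the LTR8B IFNB libraries, against 3.27 to 3.76 in the LTR8B untreated libraries, and 3.01 to 3.28 in the GFP IFNB libraries, against 3.19 to 3.41 in the GFP untreated libraries. Without that entry the ratio was thus lower with IFNB without overlap in LTR8B cells, while the GFP groups overlapped. With both entries summed, IFNAR2 had 17.1 CPM in LTR8B untreated replicate 3, where IFNAR1 had 65.9 CPM. The sum was 20.2 CPM in LTR8B IFNB replicate 4, where IFNAR1 had 79.3 CPM. The lack of overlap in LTR8B cells therefore did not hold with the readthrough entry included. The lines were not tested against each other on this ratio.

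IFNGR1, the chain of the interferon gamma receptor that binds the ligand and carries JAK1, had 36.1, 33.6, 35.4 and 35.5 CPM in the LTR8B IFNB libraries, against 31.8, 25.3, 31.1 and 28.4 CPM in the LTR8B untreated libraries. In GFP cells it had 32.6 and 37.9 CPM with IFNB, against 27.2 and 29.6 CPM untreated. Its increase was small but showed no overlap in either line, with a log2 fold change of 0.29 averaged over the lines (SE 0.07, adjusted p = 0.0124), 0.27 in LTR8B cells (adjusted p = 0.0754) and 0.31 in GFP cells (adjusted p = 0.215). The averaged call was lost without GFP untreated replicate 1 (adjusted p = 0.106) and without GFP IFNB replicate 2 (adjusted p = 0.120). IFNGR2, its partner chain and the carrier of JAK2, stayed between 36.0 and 39.4 CPM in the LTR8B IFNB libraries, against 33.0 to 39.0 CPM in the LTR8B untreated libraries, and was at 38.3 and 33.3 CPM in the GFP IFNB libraries, against 34.7 and 38.3 CPM in the GFP untreated libraries. Its averaged log2 fold change was 0.02, with an interval of -0.11 to 0.15 (adjusted p = 0.922). Its IFNB and untreated libraries overlapped in both lines. IFNGR2 shares 380 exon bases with TMEM50B on the opposite strand, which averaged 25.6 to 25.9 CPM per group. Whether reads of TMEM50B added to IFNGR2 was not tested.

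Of the kinases, JAK2 was the one that rose. JAK2, which the interferon gamma receptor and several growth factor receptors use, had 23.4, 23.6, 24.8 and 27.1 CPM in the LTR8B IFNB libraries, against 15.7, 14.3, 15.4 and 16.8 CPM in the LTR8B untreated libraries. In GFP cells it had 22.8 and 22.7 CPM with IFNB, against 13.0 and 11.4 CPM untreated. Every IFNB library, in either line, lay above every untreated library. The log2 fold change was 0.67 in LTR8B cells (SE 0.08, adjusted p = 1.32e-05), 0.89 in GFP cells (SE 0.11, adjusted p = 4.1e-05) and 0.78 averaged over the lines (SE 0.07, adjusted p = 2.33e-07), a 1.72-fold increase. By the averaged log2 fold change JAK2 stood at place 433 from the highest of the 16393 tested genes.

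JAK1, the kinase shared by both interferon receptors, had 193, 188, 179 and 203 CPM in the LTR8B IFNB libraries, against 184, 172, 177 and 199 CPM in the LTR8B untreated libraries. It had 169.8 and 167 CPM in the GFP IFNB libraries, against 163 and 171 CPM in the GFP untreated libraries, and the IFNB and untreated libraries of each line overlapped. Its averaged log2 fold change was 0.04 (95% interval -0.07 to 0.14, adjusted p = 0.787). TYK2, the kinase carried by IFNAR1, had 46.9, 47.0, 43.9 and 41.1 CPM in the LTR8B IFNB libraries, against 49.1, 50.1, 45.2 and 43.4 CPM in the LTR8B untreated libraries, and 48.2 and 43.4 CPM in the GFP IFNB libraries, against 49.96 and 49.1 CPM in the GFP untreated libraries. Its averaged log2 fold change was -0.09 (95% interval -0.21 to 0.03, adjusted p = 0.491). Per kilobase of exon, JAK2 made up 9.19% to 10.4% of the summed JAK1, JAK2 and TYK2 in the LTR8B IFNB libraries, against 6.25% to 6.72% in the LTR8B untreated libraries, and 9.80% to 10.1% in the GFP IFNB libraries, against 5.10% to 5.97% in the GFP untreated libraries. JAK1 remained the most abundant of the 3 kinases in every library, at 71.3% to 77.5% of the sum.

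SOCS1, which binds and inhibits JAK1, JAK2 and TYK2, had the highest fold change of the 10 genes from the lowest level. It had 2.76, 2.57, 2.11 and 1.91 CPM in the LTR8B IFNB libraries (54, 55, 26 and 36 counts), against 0.369, 0.876, 0.536 and 0.669 CPM in the LTR8B untreated libraries (8, 17, 16 and 13 counts). In GFP cells it had 3.004 and 2.64 CPM with IFNB (63 and 53 counts), against 0.831 and 0.565 CPM untreated (22 and 12 counts). Every IFNB library lay above every untreated library, although the untreated counts are few and the estimates correspondingly wide. The log2 fold change was 1.95 in LTR8B cells (SE 0.26, adjusted p = 4.57e-05), 1.99 in GFP cells (SE 0.34, adjusted p = 0.00127) and 1.97 averaged over the lines (95% interval 1.52 to 2.42, adjusted p = 3.43e-06). The averaged value is a 3.92-fold increase and stood at place 148 from the highest of all tested genes. SOCS1 lies on chromosome 16 (11254405 to 11256200, minus strand, hg38) within RMI2, a gene on the opposite strand that shares 0 exon bases with it. RMI2, a subunit of a complex that dissolves recombination intermediates, averaged 17.4 CPM in LTR8B IFNB, against 10.0 CPM in LTR8B untreated, and 18.8 CPM in GFP IFNB, against 12.3 CPM in GFP untreated, with an averaged log2 fold change of 0.69 (adjusted p = 2.64e-06). Whether reads from RMI2 introns added to SOCS1 was not tested.

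SOCS3, which acts on gp130 receptors and also binds JAK kinases, had 27.4, 28.3, 31.2 and 28.04 CPM in the LTR8B IFNB libraries, against 23.6, 26.5, 23.6 and 23.96 CPM in the LTR8B untreated libraries. In GFP cells the groups overlapped, at 27.7 and 24.8 CPM with IFNB, against 26.0 and 25.4 CPM untreated. The LTR8B groups did not overlap, but the log2 fold change of 0.23 did not pass the test (adjusted p = 0.0839). Of the alternatives run, it passed without LTR8B untreated replicate 2 (0.27, adjusted p = 0.0375). In GFP cells it was 0.03 (adjusted p = 0.932) and averaged over the lines 0.13 (adjusted p = 0.289). SOCS2, known as a brake on growth hormone signalling, had 7.25, 5.51, 6.10 and 4.82 CPM in the LTR8B IFNB libraries, against 6.45, 6.59, 7.40 and 6.53 CPM in the LTR8B untreated libraries, and 6.63 and 7.61 CPM in the GFP IFNB libraries, against 9.41 and 8.24 CPM in the GFP untreated libraries. Its averaged log2 fold change was -0.25 (95% interval -0.48 to -0.03, adjusted p = 0.220). SOCS2 shares 277 exon bases with SOCS2-AS1 on the opposite strand, which averaged 0.295 to 0.453 CPM per group. Of the 3 SOCS genes, SOCS1 passed the test and SOCS2 and SOCS3 did not. The level of SOCS3 per kilobase was 6.53 to 9.70 times that of SOCS1 in the LTR8B IFNB libraries, against 19.9 to 42.0 times in the LTR8B untreated libraries, and 6.06 to 6.18 times in the GFP IFNB libraries, against 20.6 to 29.6 times in the GFP untreated libraries.

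**Figure D3:**
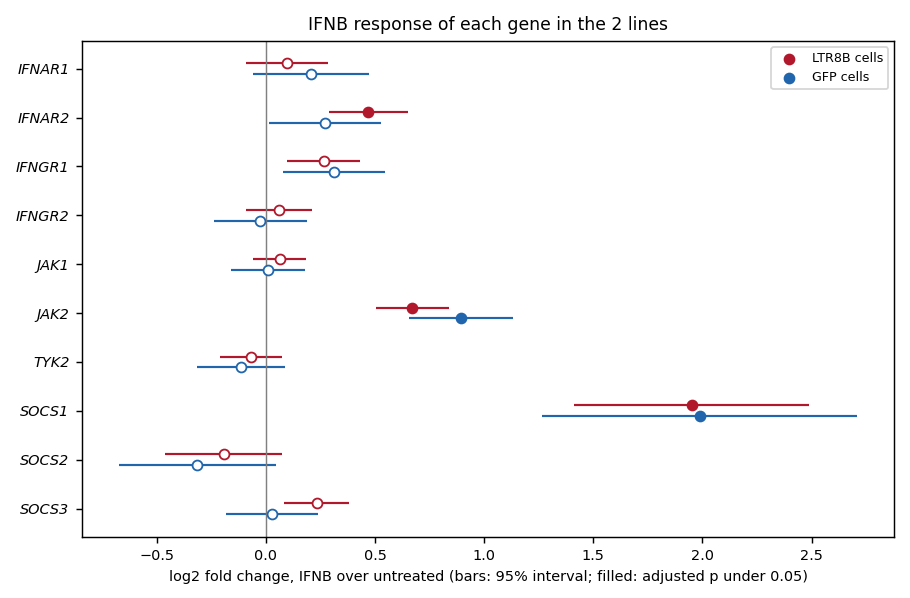
Log2 fold change of the 10 genes with IFNB against untreated, in LTR8B cells and in GFP cells, with 95% intervals from the edgeR model and filled symbols for values past the adjusted threshold. SOCS1 and JAK2 lie apart from 0 in both lines, at 1.95 and 0.67 in LTR8B cells and 1.99 and 0.89 in GFP cells.

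The DNA just upstream of SOCS1 and JAK2 is shown because these genes rose in both lines, beside ISG15 and IRF1 as interferon-induced genes whose windows hold the motifs searched. Each window spans 250 bases before to 50 after a RefSeq start on GRCh38.p14, read 5′ to 3′ on the gene's strand, with motif matches in capitals. The motifs were the core of the interferon-stimulated response element (ISRE), GAAA followed by 2 bases of any kind and GAAA, bound by a complex of STAT proteins with IRF9, and TTCNNNGAA, an element bound by STAT dimers, both searched on either strand. SOCS1 is at chr16:11256155-11256454 (minus strand), the first of 4 JAK2 windows at chr9:4984140-4984439 (plus), ISG15 at chr1:1013247-1013546 (plus) and IRF1 at chr5:132490724-132491023 (minus).
SOCS1: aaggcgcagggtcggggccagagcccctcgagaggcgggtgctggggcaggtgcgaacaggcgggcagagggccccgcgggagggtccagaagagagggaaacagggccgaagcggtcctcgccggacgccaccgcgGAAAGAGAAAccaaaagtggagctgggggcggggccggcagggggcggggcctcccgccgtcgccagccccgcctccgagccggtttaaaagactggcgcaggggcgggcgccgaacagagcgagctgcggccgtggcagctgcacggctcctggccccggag
JAK2: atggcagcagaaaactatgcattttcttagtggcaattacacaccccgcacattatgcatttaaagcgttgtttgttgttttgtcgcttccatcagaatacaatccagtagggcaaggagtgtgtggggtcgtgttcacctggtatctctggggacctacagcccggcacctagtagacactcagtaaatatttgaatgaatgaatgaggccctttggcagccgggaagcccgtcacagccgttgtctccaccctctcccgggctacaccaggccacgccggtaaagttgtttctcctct
ISG15: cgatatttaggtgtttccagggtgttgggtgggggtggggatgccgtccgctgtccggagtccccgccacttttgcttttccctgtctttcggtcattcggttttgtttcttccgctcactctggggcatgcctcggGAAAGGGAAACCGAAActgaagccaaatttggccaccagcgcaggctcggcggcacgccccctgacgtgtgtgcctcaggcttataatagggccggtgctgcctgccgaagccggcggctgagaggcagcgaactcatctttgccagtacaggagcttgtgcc
IRF1: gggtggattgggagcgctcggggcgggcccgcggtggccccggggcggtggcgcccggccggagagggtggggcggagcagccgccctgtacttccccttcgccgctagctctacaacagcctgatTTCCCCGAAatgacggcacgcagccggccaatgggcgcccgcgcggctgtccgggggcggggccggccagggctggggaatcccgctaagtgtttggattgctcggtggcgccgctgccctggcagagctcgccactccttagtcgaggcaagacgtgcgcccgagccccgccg
The SOCS1 window holds GAAAGAGAAA, which begins 113 bases before the start, and ISG15 holds the ISRE core in overlapping copies that begin 113 and 107 bases before the start. IRF1 holds TTCCCCGAA, 124 bases before the start, and the JAK2 window holds neither motif. RefSeq windows matched 8 of the 10 genes, with 16 windows in all, and IFNAR2 and SOCS2 had none. SOCS1 alone among these 8 had a match to the ISRE core, in 1 of the 16 windows, and 0 of the 16 windows matched TTCNNNGAA. Over all 35116 windows, 3.57% held the ISRE core and 7.66% held TTCNNNGAA. A match describes letters in this window and does not show a bound site, and a window without a match says nothing of sites elsewhere.

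The next question was whether the response to IFNB differed between LTR8B and GFP cells. The log2 difference between the responses of the lines, LTR8B minus GFP, passed the test for 0 of the 10 genes (0 at an unadjusted p under 0.05), and for 0.00% of all tested genes. DESeq2 and limma-voom also called 0 of all tested genes, while 489 genes had an unadjusted edgeR p under 0.05. For JAK2 the difference was -0.22 (95% interval -0.51 to 0.07), for SOCS3 0.20 (-0.05 to 0.46) and for IFNAR2 0.20 (-0.12 to 0.51). For SOCS1 it was -0.04 with an interval of -0.997 to 0.92, the widest of the 10. The adjusted p was 0.996 or higher for all 10 genes.

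The remaining comparisons set LTR8B cells against GFP cells, to ask whether the levels of these genes differed between the lines. Each guide was in a single line, so an effect of the guide cannot be told apart from another difference between the lines. Guide effect below names only the difference between the lines. In untreated cells 0 of the 10 genes passed the test, where 0.360% of all tested genes did. At an unadjusted p under 0.05 there were 2 of the 10, beside 1840 of the 16393 tested genes. With IFNB 0 of the 10 passed, where 0.354% of all tested genes did, and 2 had an unadjusted p under 0.05, beside 1554 of the 16393. Averaged over both treatments 0 of the 10 passed with edgeR, where 2.14% of all tested genes did. The unadjusted p was under 0.05 for 4 of the 10, beside 2593 of the 16393. With limma-voom 0 of the 10 were called in each of the 3 comparisons. DESeq2 called 1, JAK1, in the averaged one, where it called 590 of the 16393 tested genes.

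The genes closest to the threshold were JAK2, JAK1, SOCS2 and IFNAR2. JAK2 was at 15.5 ± 1.05 CPM in LTR8B untreated (SD, n = 4), against 12.2 ± 1.16 CPM in GFP untreated (SD, n = 2), and at 24.7 ± 1.68 CPM in LTR8B IFNB (n = 4), against 22.8 ± 0.0455 CPM in GFP IFNB (n = 2). Its log2 difference was 0.34 untreated (adjusted p = 0.209), 0.12 with IFNB (adjusted p = 0.745) and 0.23 averaged (95% interval 0.09 to 0.38, adjusted p = 0.0998). JAK1 was at 183 ± 11.4 CPM in LTR8B untreated, against 167 ± 5.47 CPM in GFP untreated, and at 191 ± 10.2 CPM in LTR8B IFNB, against 168 ± 2.08 CPM in GFP IFNB, with an averaged log2 difference of 0.16 (adjusted p = 0.120 with edgeR and 0.0484 with DESeq2). For JAK1 and JAK2 every LTR8B library lay above every GFP library of the same treatment. An exact two-sided permutation of the guide labels within treatments, over 225 arrangements, gave p = 0.00444 for JAK2, the smallest it can give, 0.00889 for JAK1, 0.0178 for SOCS2 and 0.0267 for IFNAR2, none adjusted for the many genes of the table. For JAK1 and JAK2 a p at or near the smallest follows from the lack of overlap. These genes were picked by their edgeR results in the same libraries, so the permutation adds no independent evidence. The same permutation gave 0.156 (IFNAR1) to 0.827 (IFNGR1) for the other members, and IFNAR2 was taken without the readthrough entry.

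SOCS2 was at 6.74 ± 0.441 CPM in LTR8B untreated, against 8.83 ± 0.825 CPM in GFP untreated, and at 5.92 ± 1.03 CPM in LTR8B IFNB, against 7.12 ± 0.694 CPM in GFP IFNB. The averaged log2 difference was -0.33 (95% interval -0.55 to -0.10, adjusted p = 0.127), and the untreated groups did not overlap whereas the IFNB groups did. IFNAR2 had a log2 difference of 0.30 with IFNB (adjusted p = 0.374) and 0.20 averaged (adjusted p = 0.195), which became 0.08 and -0.01 when the readthrough entry was added. In untreated cells 2 of the 10 genes lay above the GFP libraries without overlap and 1 below, beside 19.6% of all tested genes on either side. With IFNB 3 lay above and 0 below, beside 19.0% of all tested genes, so the members stood near the share of the table as a whole.

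**Figure D4:**
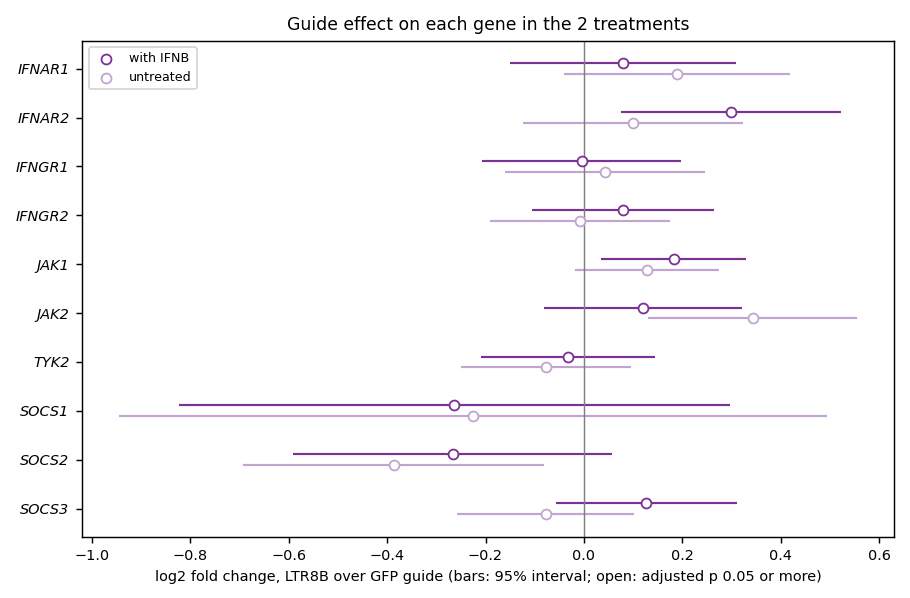
Log2 difference of the 10 genes between LTR8B and GFP cells with 95% intervals, with IFNB and untreated. The intervals of JAK2 untreated and of JAK1 and IFNAR2 with IFNB lie above 0 and that of SOCS2 untreated lies below 0, but 0 of the 10 genes passed the adjusted threshold in either treatment.

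Markers of several cell types differed between LTR8B and GFP cells averaged over treatments, where 2.14% of all tested genes changed. The summed level of 8 blood cell markers was 8.48 to 11.3 CPM in LTR8B IFNB and 9.50 to 11.5 CPM in LTR8B untreated, against 15.8 to 17.7 CPM in GFP IFNB and 14.4 to 19.0 CPM in GFP untreated. Of these markers 2 averaged 1 CPM or more, CSF1R and LAPTM5, and both were lower in LTR8B cells, with averaged log2 differences of -0.57 (adjusted p = 0.00486) and -1.12 (adjusted p = 0.00154). The defining leukocyte markers PTPRC and CD14 averaged 0.0193 and 0.0196 CPM. Of the 8 mesenchymal markers 2 fell and 0 rose in LTR8B cells against GFP cells, SPARC with a log2 difference of -0.22 (adjusted p = 0.0289) and COL1A1 with -0.64 (adjusted p = 0.0492). Of 3 tested endothelial markers 1 fell, CDH5 with -1.71 (adjusted p = 0.0269) at a mean of 0.235 CPM, of 3 tested neural markers 1 rose, NCAM1 with 0.38 (adjusted p = 0.0141), and of 3 tested epithelial markers 0 changed. The differences of JAK1, JAK2 and SOCS2 did not pass the edgeR test, and any part of these markers in them was not tested.

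The rest of the pathway put the changes of the 10 genes on a scale. Of 8 tested STATs and partner factors, 5 rose with IFNB in each line and 0 fell. IRF9, the DNA-binding partner of STAT proteins, rose by a log2 fold change of 4.71 averaged over the lines (adjusted p = 6.33e-17), STAT2 by 2.29 (adjusted p = 4.79e-15), IRF1, an interferon-induced activator, by 1.58 (adjusted p = 8.55e-12) and IRF2, its relative, by 1.17 (adjusted p = 1.74e-10). Of 15 tested brakes other than SOCS proteins, 2 rose and 0 fell, USP18, which binds IFNAR2 and blocks its signalling, by 6.22 (adjusted p = 7.46e-17) and ISG15, which stabilises USP18, by 5.08 (adjusted p = 4.98e-11). The increase of SOCS1, 1.97, lay below those of USP18 and ISG15, and 0 of the other brakes, including the phosphatases PTPN1 and PTPN2, passed the test. Of the other SOCS family members, CISH, SOCS4, SOCS5, SOCS6 and SOCS7, 0 of 5 passed, and SOCS5 came nearest, at 0.25 (adjusted p = 0.0649). JAK3, the kinase of lymphocyte receptors, had 6 counts over all libraries and was not tested. The 6 subunits of the ubiquitin ligases that SOCS proteins recruit gave 0 calls.

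Other receptors that use JAK kinases, a list that also holds the interferon lambda receptor chain IFNLR1, were set beside these genes. Averaged over the lines 3 of 23 tested rose and 1 fell, where 6.29% of all tested genes changed. The median log2 fold change of the 23 was 0.09, beside -0.01 for all tested genes, and IFNLR1 itself was at -0.28 (adjusted p = 0.667). IL15RA, the interleukin 15 receptor chain, rose by 1.56 (adjusted p = 1.44e-10), IL22RA1, which pairs with a chain shared with interleukin 10, by 1.85 (adjusted p = 0.00916), and OSMR, the oncostatin M receptor, by 0.28 (adjusted p = 0.00226). IL6R, the interleukin 6 receptor, fell by 0.31 (adjusted p = 0.0378), and its ligand IL6 rose by 0.68 (adjusted p = 0.00348) as 1 of 5 tested cytokines that signal through gp130, the receptors that SOCS3 restrains. Between the guides, IL7R (0.38, adjusted p = 0.00179) and CSF2RA (0.61, adjusted p = 0.00457) were higher in LTR8B cells averaged over treatments; CSF2RA lies in the pseudoautosomal region, whose copies share sequence, so its counts are uncertain. Of 21 interferon genes searched for, 1 passed the filter, IFNE at a mean of 0.517 CPM, and IFNB1 had 1 count in all 12 libraries.

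**Figure D5:**
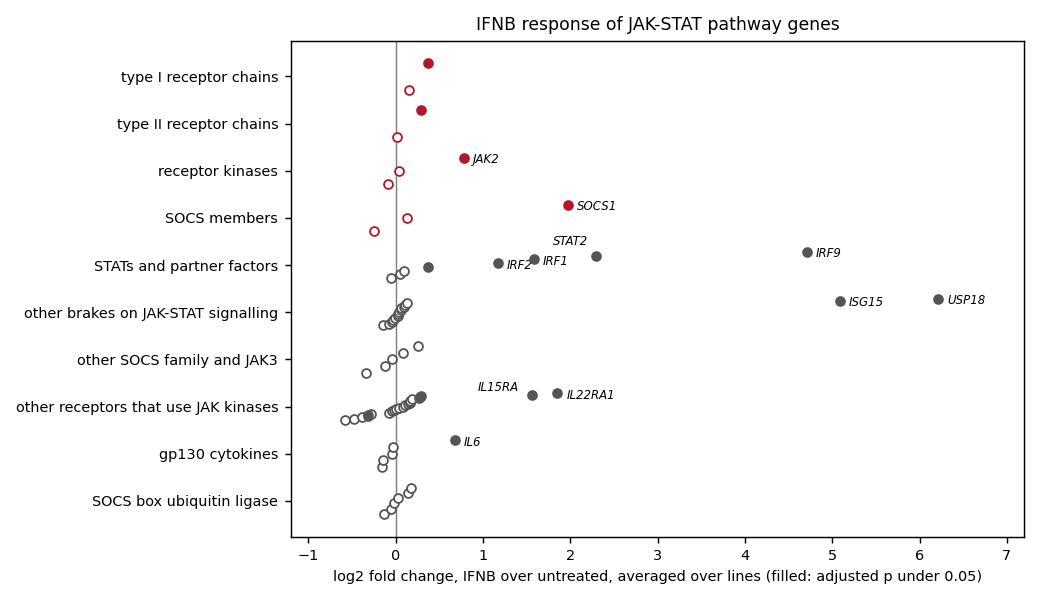
Log2 fold changes with IFNB, averaged over the lines, of the tested genes in each list of the pathway, with a point per gene and filled points past the adjusted threshold. The STATs and partner factors reach 4.71 (IRF9) and the other brakes 6.22 (USP18), while the 10 genes lie between -0.25 (SOCS2) and 1.97 (SOCS1).

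SOCS1 was the member with a log2 fold change above 1, and the genes closest to it in pattern were sought among 13695 genes by the root mean square difference over the 12 libraries in log2(CPM + 1), each gene centred on its own mean. The closest were CMTR1, a cap methyltransferase, at 0.124, LAP3, a leucine aminopeptidase, at 0.137, and TRIM26, a ubiquitin ligase of the TRIM family, at 0.154. With IFNB averaged over the lines they rose by 1.07, 1.21 and 1.02 on the log2 scale. The added 1 CPM compresses the changes of a gene as low as SOCS1, so these genes match its compressed pattern and not its 1.97.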

How the data were processed

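The authors deposited a table of whole-number counts per gene for the 12 libraries, from which all values here were computed. Salmon 0.13.1, DESeq2 1.38.3 and hg38 are named per the submitters' processing notes; their roles and order, and the use of strand in counting, are not given in the sources used here. A second deposited table, normalized signal, was each count over a library factor (0.600 to 1.46) and served only for that check. Per the labels, adapters were single or unique dual indexed, without saying in which library, so no library batch was tested.

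Genes were filtered with filterByExpr (minimum count 10, minimum total 15), scaled by TMM and fitted in edgeR 4.0.16 (R 4.3.3) with 1 mean per group, no covariate and robust quasi-likelihood dispersion. All 7 contrasts came from this fit, at an adjusted p of 0.05, and the code was tested on simulated counts. Alternatives were DESeq2 1.42.0, limma 3.58.1 (voom), RLE scaling, no filter, a replicate block and leaving out each library. The block was within each line for IFNB responses and across the guides for guide effects. Derived values used Python 3.11.15, pandas 2.3.3 and NumPy 2.4.6, and exact permutations SciPy 1.17.1. Lengths came from GENCODE 29 (hg38), promoter windows from RefSeq (GRCh38.p14).

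Replicates differed by 2.61 to 15.5 chi-square per degree of freedom, so no library was a duplicate. The genes named were the 10 members, SP140, 3 interferon-stimulated genes and up to 4 called genes per list by smallest adjusted p. Also named were the 3 genes closest in pattern to a called member with a log2 fold change of at least 1. RMI2, IFNAR2-IL10RB, IL10RB-DT, TMEM50B, SOCS2-AS1 and uncalled list genes were added after their values were seen. The members and lists were chosen with earlier results of these data known. A result for 1 listed gene is not reported here.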

Additional observations from a re-analysis of the deposited data

Results flagged for a closer look

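In the 4 LTR8B untreated libraries, a single library stood apart from the other 3 for 2 of the 10 genes. SOCS2 had 7.40 CPM in replicate 3, above 6.45 to 6.59 CPM in the others, and SOCS3 had 26.5 CPM in replicate 2, above 23.6 to 23.96 CPM in the others. The test, Dixon's for the gap between a library and its nearest neighbour relative to the range of the group, was made in 20 combinations of gene and group, and chance gives about 1 such result in 20. Without replicate 2 the IFNB response of SOCS3 in LTR8B cells was 0.27 (adjusted p = 0.0375), against 0.23 (adjusted p = 0.0839) with it.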

How the results depend on the processing

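The increases of SOCS1 (1.85 to 2.13), JAK2 (0.73 to 0.84) and IFNAR2 (0.28 to 0.41) averaged over the lines kept their call under every alternative run, IFNAR2 by an adjusted p of at most 0.0470. IFNGR1 (0.23 to 0.34) lost it without GFP untreated replicate 1 (adjusted p = 0.106) or GFP IFNB replicate 2 (0.120), and in LTR8B cells gained it with DESeq2 (0.0469), no filter (0.0374) and the replicate block within each line (0.0138). Of 1237 member values under alternatives, 7 changed side of the threshold and 0 reversed while past it; 46 values past the threshold in neither fit changed sign. The labels give no shared batch to replicate numbers; deviations of IFNB and untreated libraries of a line correlated by 0.0375 to 0.164 for the same number and -0.122 to 0.0525 for different numbers, and LTR8B replicate 3 did not correlate best with its own number, so a pairing was not established. The replicate block within each line gave 1598 genes for the averaged IFNB response in place of 1031, and 4 for the difference of responses in place of 0. A different block, by replicate number across the guides, gave 181 for the averaged guide effect in place of 351. Across the guides, deviations of libraries with the same number and treatment correlated by -0.0926 to -0.0384. Guide effects held 177 genes (untreated), 120 (IFNB) and 590 (averaged) with DESeq2, with 1 member, JAK1, in the averaged one, and 325, 260 and 775 without a filter, in place of 59, 58 and 351; without a filter the difference of responses held 13. Leaving out a library gave 602 to 738 genes for LTR8B, 344 to 594 for GFP and 753 to 1121 for averaged IFNB responses, with 3 to 4, 2 and 3 to 4 members, 0 to 1 for their difference, and 22 to 94 (untreated), 21 to 69 (IFNB) and 93 to 461 (averaged) for guide effects, with 0 members. Counts moved by over 1.5 times without GFP untreated replicate 1 (344 for GFP, 1 for the difference, 34 untreated, 191 averaged), GFP untreated replicate 2 (22 untreated, 93 averaged), GFP IFNB replicate 1 (178 averaged), GFP IFNB replicate 2 (21 with IFNB, 153 averaged), LTR8B untreated replicate 2 (94 untreated) and LTR8B IFNB replicate 2 (37 with IFNB). The 602 came without LTR8B IFNB replicate 3 and the 753 without GFP untreated replicate 2. With longest transcripts 4 of 10 genes kept their place in level. The cause of these changes was not tested. Groups of 2 GFP libraries and 8 to 22 untreated SOCS1 counts limit the precision.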
